A study of Mus musculus with 5 samples.

Results

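The oncofetal genes of the let-7 pathway Lin28b, Trim71, Hmga2, Arid3a, Igf2bp1, Igf2bp2 and Igf2bp3 were followed through 5 maps of Argonaute (Ago) binding in the developing mouse liver. The 7 genes were chosen by name, and every cluster listed under 1 of these symbols was taken. They were 7 of the 21828 genes listed in the series. Livers of C57BL/6 mice (C57BL/6J in the methods) were taken at embryonic stages e12.5, e15.5 and e18.5 (days after conception), at postnatal day 7 (P7) and from adults of 6 to 8 weeks, and all were irradiated 3 times with 254 nm light at 0.2 J/cm2. Each stage was represented by 1 labelled sample, called a library below. Antibodies to Ago2 were used at the 3 embryonic stages, and antibodies to Ago2 and Ago1 at P7 and in the adult, so the antibody and birth cannot be told apart. No treatment or altered allele is named in the labels, and whether 1 liver or a pool was used is not given in the sources used here.

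Ago HITS-CLIP crosslinks RNA to Ago proteins with ultraviolet light, pulls the proteins down and sequences the bound RNA, so a cluster of overlapping reads marks a stretch of RNA held by Ago. let-7 is a family of miRNAs that share 1 seed, the bases that pair with target mRNAs, and it is known for its accumulation as tissues mature. LIN28B binds let-7 precursors and blocks their processing, while let-7 in turn pairs with the Lin28b mRNA. The other genes are widely described let-7 targets of embryonic tissues that are switched on again in some tumours, liver cancer included. They were chosen as let-7 targets, so let-7 sites on them are no independent evidence of targeting.

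The let-7 seed was shared by 11 miRNAs of the tables. Mature sequences are shown for let-7a-5p, highest of the family at e12.5, for let-7c-5p, highest in the adult, and for miR-98-5p, which carries another name. They come from RefSeq (GRCm38.p6), with the seed, bases 2 to 8, in capitals.
let-7a-5p: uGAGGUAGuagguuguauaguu
let-7c-5p: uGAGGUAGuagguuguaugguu
miR-98-5p: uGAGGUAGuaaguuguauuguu
For each gene with a let-7 site the site listed in most libraries and then with most reads follows, together with the only coding site. Each is given as a window of 30 bases of GRCm38, with capitals for the bases that pair with miRNA bases 2 to 7, with base 8 where it pairs, and for an A opposite base 1.
Lin28b, chr10:45381022-45381051, minus strand, 3′UTR: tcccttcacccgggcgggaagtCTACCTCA
Trim71, chr9:114512048-114512077, minus strand, 3′UTR: atgcaacagggcttttctctgttTACCTCA
Arid3a, chr10:79954715-79954744, plus strand, 3′UTR: aaaaaaaagaaaaaactgttttCTACCTCt
Arid3a, chr10:79951889-79951918, plus strand, CDS: gtgtctacacccaccatgtcttCTACCTCA
Igf2bp1, chr11:95963029-95963058, minus strand, 3′UTR: tcttaatgtcctgaccagtaactTACCTCt
Igf2bp3, chr6:49086787-49086816, minus strand, 3′UTR: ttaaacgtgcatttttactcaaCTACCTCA
The Igf2bp1 site with most reads, all of them at e12.5, is shown as well because its window held another let-7 match further upstream.
Igf2bp1, chr11:95961760-95961789, minus strand, 3′UTR: taaactacctcaaggtgtgaagtTACCTCA
The tables held at most 1 site of a miRNA in a cluster of a list. The upstream match in this window, an 8mer opposite the miRNA's base 1 at position 95961778, was the only 3′UTR match of the 7 genes that lay inside a listed cluster and was not itself listed for the family.

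The tables held 76948 to 208193 clusters and 13008703 to 44867326 summed cluster reads per library, deepest at e12.5 and shallowest at e18.5. No cluster under 5 reads was listed, which on a scale of 1000000 summed cluster reads (rpm) is 0.111 for e12.5 and 0.384 for e18.5, so a gene that was not listed may still have been bound below this level. The 10 largest clusters took 36 to 49.9% of the reads of a library. Clusters on mRNA (3′UTR, coding sequence (CDS) or 5′UTR) took 13.5% in the adult and 20.5 to 30% at the other stages. Each embryonic table consisted of 2 lists. The methods name biological replicates for the Ago2 experiments, but the labels give 1 sample per stage and do not tie a list to a replicate, so the values of the lists stand beside those of the table and not as replicates. The supplement also names a repeat library of e18.5, and whether a list of that table comes from it is not given in the sources used here. Without labelled replicates no difference between stages was tested, and intervals below cover counting error only. The 5′ linker carried variable bases called a barcode, and whether reads were collapsed by it is not given in the sources used here.

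All 7 genes were listed at every embryonic stage, 6 at P7, where Trim71 was missing, and 2 in the adult, Arid3a and Igf2bp2. Together they had 189, 43, 33, 41 and 7 clusters from e12.5 to the adult. Out of each 100000 clusters of the e12.5 table they took 90.8 (95% exact interval 78.3 to 105). They took 53 (38.4 to 71.4) for e15.5, 42.9 (29.5 to 60.2) for e18.5, 32.9 (23.6 to 44.6) for P7 and 8.62 (3.47 to 17.8) for the adult. The intervals of e12.5 and the adult lay apart from those of every other stage, while those of e15.5, e18.5 and P7 overlapped. Their summed reads, the highest read number of each cluster added up, were 230, 168, 103, 49.5 and 5.95 rpm in order of age. For e12.5 the first list gave 367 rpm and the second 163. The lists of e15.5 gave 345 and 103 rpm, and those of e18.5 118 and 45.6. Summed over the 7 genes, both lists thus kept the order of the 3 embryonic stages, but the gap between the lists of a table was wider than the gap from e12.5 to e15.5. The first list of e15.5 held 9 clusters, all on Lin28b, Igf2bp1 and Igf2bp3. In it Igf2bp1 (243 rpm) and Igf2bp3 (86.4 rpm) were higher than in the first list of e12.5 (117 and 19.3 rpm).

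**Figure D1:**
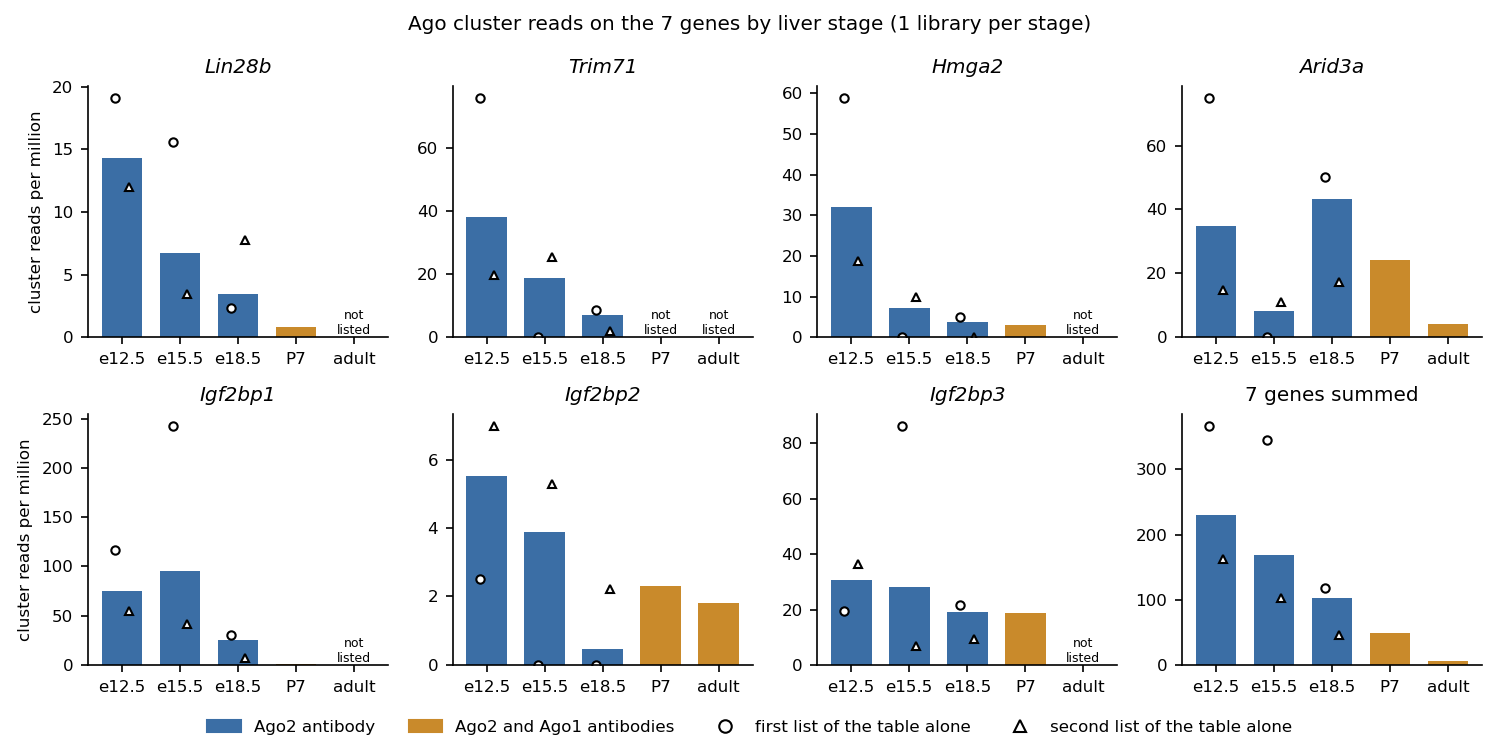
Cluster reads (rpm) on each of the 7 genes and on all of them together at each liver stage, with 1 library per stage. Bars show the whole table, circles and triangles the first and second list of an embryonic table, and colours the antibodies. The summed bars run from 230 at e12.5 to 5.95 in the adult, Arid3a was highest at e18.5 and Igf2bp1 at e15.5.

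With 1 rpm added to each value, the summed reads were 5.06 higher in the e12.5 than in the adult library on the log2 scale. Of the 7 genes, 6 were past 4-fold higher at e12.5, all but Igf2bp2, and none was past 4-fold lower. Among all 18597 genes with at least 10 reads in either library, 22.6% were past 4-fold higher at e12.5 and 5.93% past 4-fold lower. The median log2 ratio was 4.99 over the 7 genes and 0.83 over all genes tested. For 5 of the 7 genes the ratio rests on their not being listed in the adult, so no fold is given for them, and the median depends on the 1 rpm added. Among genes with at least 10 reads at e12.5, 31.7% were not listed in the adult, and among the 6930 genes with reads between those of the lowest and the highest of the 7 genes (247 to 3368), 11.8% were not.

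Comparisons made with the same antibodies showed smaller differences before birth. The summed reads were 1.16 higher at e12.5 than at e18.5 on the log2 scale, and 3 of the 7 genes were past 4-fold higher at e12.5, Trim71, Hmga2 and Igf2bp2, against 10.7% of all genes tested. The number was 2 to 4 under the alternatives run. Hmga2 was past the line in each of them. Lin28b, at 1.78 as reported, was past it in 4, with values of 2.02 to 2.60, but had 0.56 with the second list and 0.13 by cluster shares. Igf2bp1, at 1.52, was past it with the second list alone (2.79). Trim71 fell below it on mRNA clusters only, from 2.26 to 1.63 on the log2 scale. Igf2bp2 rested on 6 reads at e18.5, and its log2 ratio of 2.15 ran from 1.21 by cluster shares to 3.32 with 0.1 rpm added, below the line in 5 alternatives and above it in 4. Between P7 and the adult the summed reads differed by 2.86 on the log2 scale, with P7 higher. Of the 5 genes with at least 10 reads at P7 or in the adult, 3 were past 4-fold higher at P7, Hmga2, Arid3a and Igf2bp3, against 12.1% of all genes tested. Hmga2 and Igf2bp3 were not listed in the adult, so their ratios depend on the 1 rpm added. That of Hmga2, 2.03, ran from 1.75 on mRNA clusters only to 5.0 with 0.1 rpm added, and was below the line in 4 alternatives. That of Arid3a, 2.29, was 1.91 scaled to the reads of mRNA clusters and 1.04 by cluster shares. Igf2bp3 was past the line in every alternative run. Across birth, which also changes the antibodies, 2 of the 7 genes were past 4-fold higher at e18.5 than at P7, Trim71 and Igf2bp1, against 9.44% of all genes tested.

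Gene positions are those of the GENCODE annotation on GRCm38. Lin28b (chr10:45376620-45486395, minus strand) encodes the RNA-binding protein that blocks let-7 processing. It had 12, 3, 4 and 2 clusters and 14.3, 6.72, 3.46 and 0.788 rpm from e12.5 to P7, and was not listed in the adult. Both lists held Lin28b throughout gestation, with 19.1 and 12 rpm for e12.5, 15.6 and 3.47 for e15.5, and 2.33 and 7.78 for e18.5. The lists of e15.5 and e18.5 overlapped, while both lists of e12.5 lay above those of e18.5. Of its 21 clusters over all stages, 14 were in the 3′UTR and 4 in the CDS.

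Trim71 (chr9:114507133-114564369, minus strand) encodes an RNA-binding ubiquitin ligase of early embryos, known from worms as the let-7 target lin-41. It had 36 clusters with 38.1 rpm in the e12.5 library, 7 with 18.6 rpm in that of e15.5, and 2 with 7.15 rpm in that of e18.5. After birth no Trim71 cluster was listed. The log2 ratio of e12.5 over e18.5 was 2.26, and 1.63 on mRNA clusters only. Both lists of e12.5 (75.7 and 19.6 rpm) lay above those of e18.5 (8.54 and 1.85 rpm). Of the 7 genes Trim71 was the only one listed in no library after birth. The first list of e15.5 did not hold it either, nor did that list hold Hmga2, Arid3a or Igf2bp2.

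The chromatin proteins differed in their profiles. Hmga2 (chr10:120361275-120476469, minus strand) encodes an architectural protein that bends DNA in proliferating embryonic cells. Its 23, 4, 1 and 3 clusters from e12.5 to P7 held 32.1, 7.26, 3.84 and 3.09 rpm, and it was not listed in the adult. The log2 ratio of e12.5 over e18.5, 2.77, was the largest of the 7 genes, although 15 of the 23 clusters of e12.5, and all of those of the other embryonic libraries, lay in an intron or other exon sequence only. The lists of e12.5 held 58.9 and 18.8 rpm, and at e18.5 only the first list held the gene, with 4.85 rpm. On mRNA regions alone, relative to the reads of mRNA clusters, Hmga2 had 34.3 rpm at e12.5 and 11.5 rpm at P7, with no mRNA cluster listed at e15.5 or e18.5.

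Arid3a (chr10:79927043-79955018, plus strand) encodes a DNA-binding protein of the ARID family that is active in blood cells and stem cells. It was listed in every library, with 22, 5, 10, 14 and 4 clusters from e12.5 to the adult. The reads were 34.7, 8.11, 43.2, 24.2 and 4.14 rpm. Arid3a was highest at e18.5, where a single 3′UTR cluster of 345 reads in the first list made up most of its 562 reads, and e12.5 and e18.5 differed by only -0.31 on the log2 scale. This difference has no firm direction, since the lists of e12.5 alone gave 74.9 and 14.8 rpm and those of e18.5 50 and 17.4. Against the adult the log2 ratio was 2.79 for e12.5 and 2.29 for P7. That of e12.5 fell below the 4-fold line with the second list (1.62) and by cluster shares (0.96). That of P7 fell below it scaled to the reads of mRNA clusters (1.91) and by cluster shares (1.04).

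The 3 IGF2 mRNA-binding proteins, which bind and stabilise mRNAs such as those of Igf2 and Myc, had unlike profiles. Igf2bp1 (chr11:95957163-96005940, minus strand) had the most reads of the 7 genes at e12.5 and e15.5. Its embryonic levels were 75.1, 95.3 and 25.6 rpm in 52, 16 and 7 clusters. P7 kept 1 cluster of 8 reads (0.485 rpm), and the adult library listed none. The log2 ratio of e18.5 over P7 was 4.16, and it was the largest step of the 7 genes across birth among those listed on both sides. The order of e12.5 and e15.5 was not the same in both lists, which gave 117 and 54.6 rpm for e12.5 but 243 and 41.2 for e15.5. At e15.5 a 3′UTR cluster of 131 reads, 8.32% of the Igf2bp1 reads, was also listed under the miRNA gene Mir3063, so these reads may come from either.

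Igf2bp3 (chr6:49085223-49214957, minus strand) was listed until P7. Its reads were 30.7, 28.3, 19.1 and 18.7 rpm from e12.5 to P7, in 35, 5, 8 and 18 clusters. In the adult it was not listed. The log2 ratio was 0.65 for e12.5 over e18.5 and 0.03 for e18.5 over P7, both smaller than the gap between the lists of a table. The lists held 19.3 and 36.3 rpm for e12.5, 86.4 and 6.95 for e15.5, and 21.7 and 9.26 for e18.5. The log2 ratio of e12.5 over e18.5 was -0.16 with the first list and 1.86 with the second, so its direction is not firm.

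Igf2bp2 (chr16:22059009-22163299, minus strand) is known as the family member that stays expressed in adult tissues. It had the fewest reads of the 7 genes at each embryonic stage, 5.51, 3.87 and 0.461 rpm in 9, 3 and 1 clusters. After birth it had 2.3 rpm at P7 and 1.81 in the adult, in 3 clusters each. Its log2 ratio of e12.5 over adult, 1.21, was below the 4-fold line, and that of P7 over adult was 0.23. Igf2bp2 and Arid3a were thus the members that could still be seen in adult liver, with 3 and 4 clusters.

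**Figure D2:**
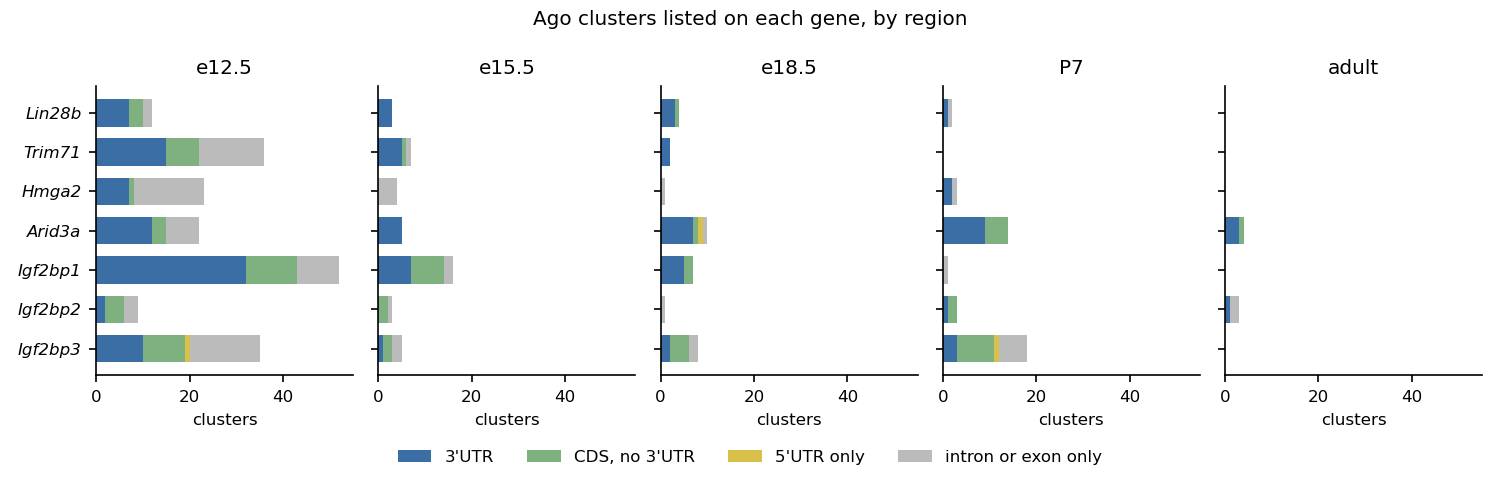
Number of Ago clusters listed on each of the 7 genes at each stage, coloured by region. Each cluster is counted once, under the 3′UTR if any of its sites lies there, then under the CDS and the 5′UTR, and otherwise as intron or exon only. Igf2bp1 had 52 clusters at e12.5 and none in the adult, and Hmga2 clusters lay mostly outside mRNA regions.

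From e12.5 to the adult, 45, 48.8, 57.6, 39 and 57.1% of the clusters of the 7 genes were in a 3′UTR, against 26.7, 30.8, 29.3, 29.1 and 23.2% of all clusters in genes. The 95% exact intervals of the members' shares lay above the share of all genes for e12.5 (37.7 to 52.4%), e15.5 (33.3 to 64.5%) and e18.5 (39.2 to 74.5%), but held it for P7 (24.2 to 55.5%) and the adult (18.4 to 90.1%). Clusters in the CDS made up 20.1% (14.6 to 26.5) at e12.5, against 39.4% for all genes, while the P7 share of 36.6% (22.1 to 53.1) had an interval that held the 51.6% of all genes. The 3′UTRs of all 7 genes were longer than the median of 952 bases in the annotation, with a median of 3085 bases, and the part of this length in the region shares was not tested. Of 259 positions on the 7 genes, 224 were listed at 1 stage only, 35 at 2 or more (13.5%, 95% exact interval 9.6 to 18.3) and 9 at 3 or more. Over all genes 23% of 316604 positions were listed at 2 or more stages. The most was 5 stages, reached on Arid3a.

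let-7 sites were listed at 12 positions on 5 of the 7 genes. Of these, 11 were in 3′UTRs and 1 in the CDS of Arid3a, 5 were 8mers, 6 were 7mers and 1 was a 6mer. The conservation score of the tables, which runs from 0 to 1, was over 0.9 at 9 of the 12. In order of age the libraries held 10, 4, 6, 4 and 2 of these sites, on 5, 2, 5, 2 and 1 genes. At the embryonic stages the first list alone held 3, 1 and 2 sites, and the second 10, 4 and 6. Of the 12, 5 were listed at a single stage. The deepest library, e12.5, also held the most sites. Among clusters above the level of 5 reads in the shallowest table, the libraries held 7, 4, 6, 4 and 2 sites.

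**Figure D3:**
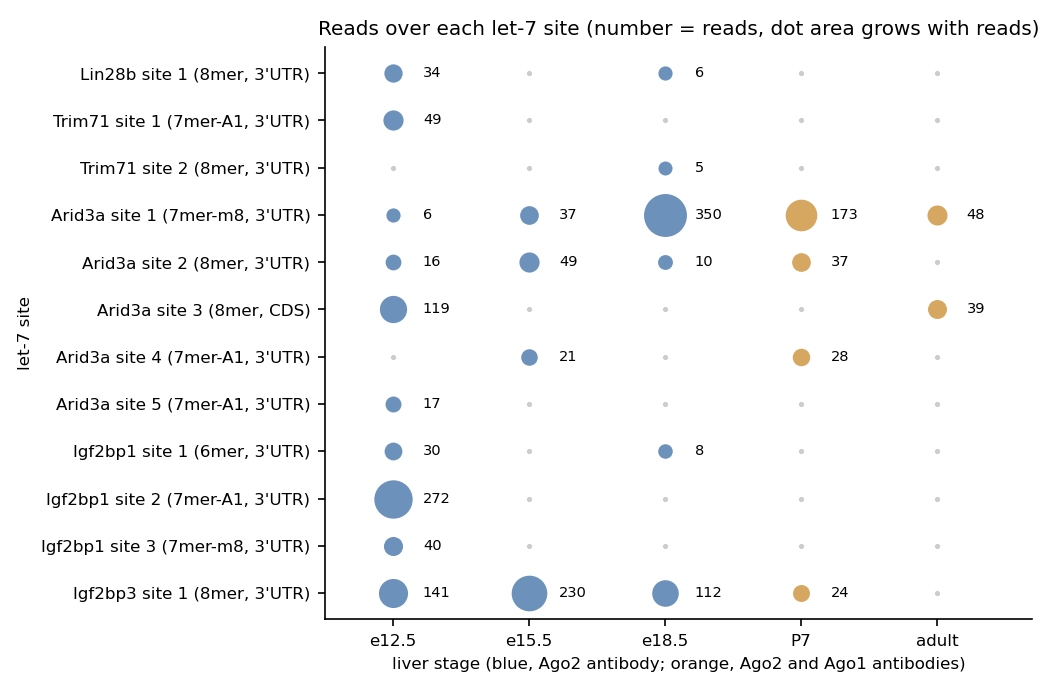
Reads over each of the 12 listed let-7 sites (rows, with seed type and region) at each liver stage (columns). Dot area grows with the reads, the number beside a dot gives them, and small grey dots mark stages where the site was not listed. Site 1 of Arid3a was listed at all 5 stages, and the Igf2bp3 site at 4.

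The Arid3a 3′UTR site at chr10:79954715-79954744 was listed in all 5 libraries, with 6, 37, 350, 173 and 48 reads in order of age. Relative to the tables this was 0.134, 2.24, 26.9, 10.5 and 1.93 rpm. The site had its highest level at e18.5 and its lowest at e12.5, but 345 of the 350 reads at e18.5 came from the first list and 5 from the second. The Arid3a 8mer in the CDS had 119 reads at e12.5 and 39 in the adult and was not listed at the stages between. All 4 let-7 matches of 7 or 8 bases in the Arid3a 3′UTR were listed in at least 1 library.

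The single let-7 match of the Igf2bp3 3′UTR, an 8mer with conservation score 1, had 141, 230, 112 and 24 reads from e12.5 to P7. It was seen in both lists of e12.5, with 118 and 23 reads. The Lin28b 8mer had 34 reads at e12.5 and 6 at e18.5, and was not listed elsewhere. On Igf2bp1 the 7mer at chr11:95961760-95961789 had 272 reads, 34 in the first list and 238 in the second, all at e12.5. Trim71 had 49 reads on the 7mer shown above at e12.5, and 5 on an 8mer at e18.5.

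No let-7 site was listed on Hmga2 or Igf2bp2, although their annotated 3′UTRs hold matches. The letters TACCTC, preceded by C, followed by A or both, were counted on the transcribed strand of every annotated 3′UTR. Hmga2 had 7 such matches, the most of the 7 genes, Trim71 6, Lin28b 5, Igf2bp1 5, Arid3a 4, Igf2bp2 2 and Igf2bp3 1. None of the Hmga2 matches lay inside a listed cluster, and 1 lay within 50 bases of a cluster. Both Igf2bp2 matches lay within 50 bases of a cluster, neither inside one. In all, the 7 genes had 30 matches in 26314 bases of 3′UTR, or 1.14 per kb against 0.123 per kb over all annotated 3′UTRs, and 10 of the 30 were listed. At least 1 match was held by 15% of all 21727 genes with a 3′UTR.

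Among 3′UTR clusters, a let-7 site was held by 9 of 85 on the 7 genes in the e12.5 library (10.6%, 95% exact interval 4.96 to 19.2). The e15.5 library had 4 of 21 (19%, 5.45 to 41.9), the e18.5 library 6 of 19 (31.6%, 12.6 to 56.6), the P7 library 4 of 16 (25%, 7.27 to 52.4) and the adult library 1 of 4 (25%, 0.631 to 80.6). Over all genes the shares were 0.816, 0.966, 1.04, 1.76 and 2.4%. The members' interval lay above the share of all genes at each stage but the adult, where 4 clusters give too little precision. The intervals of the 5 stages overlapped each other. By reads, clusters with a let-7 site held 12.6, 13.9, 41.5, 35.8 and 77% of the mRNA cluster reads of the 7 genes from e12.5 to the adult. Without Arid3a the shares were 12.1, 10.1, 18.7, 7.21 and 0%, and without Igf2bp3 they were 9.96, 5.32, 39.7, 49.4 and 77%. Between Arid3a and Igf2bp3, Igf2bp3 thus carried more of the let-7 share at e12.5 and e15.5, and Arid3a more from e18.5 on. No other gene was left out in turn, and at e12.5 the let-7 site with most reads (272) was on Igf2bp1. Over all genes 25% of mRNA cluster reads at e12.5 were in clusters with a let-7 site, which was higher than on the 7 genes, but 37.1% of those reads came from 1 cluster on the globin gene Hba-a1. With globin genes left out, the shares over all genes were 1.41, 1.52, 2.27, 3.79 and 4.04%.

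The miRNAs themselves ran the other way. The let-7 seed family took 2.45, 3.61, 5.72, 15.3 and 22.4% of the miRNA numbers listed, from e12.5 to the adult. let-7a-5p kept a similar share, 0.96% at e12.5 and 1.25% in the adult, while let-7c-5p went from 0.464 to 15.6% and let-7b-5p from 0.0489 to 3%. miR-98-5p stayed between 0.0223 and 0.0308% in all 5 libraries. The family's share and the reads of the 7 genes were thus in opposite order across the 5 stages, and with 1 library per stage no relation between them was tested.

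**Figure D4:**
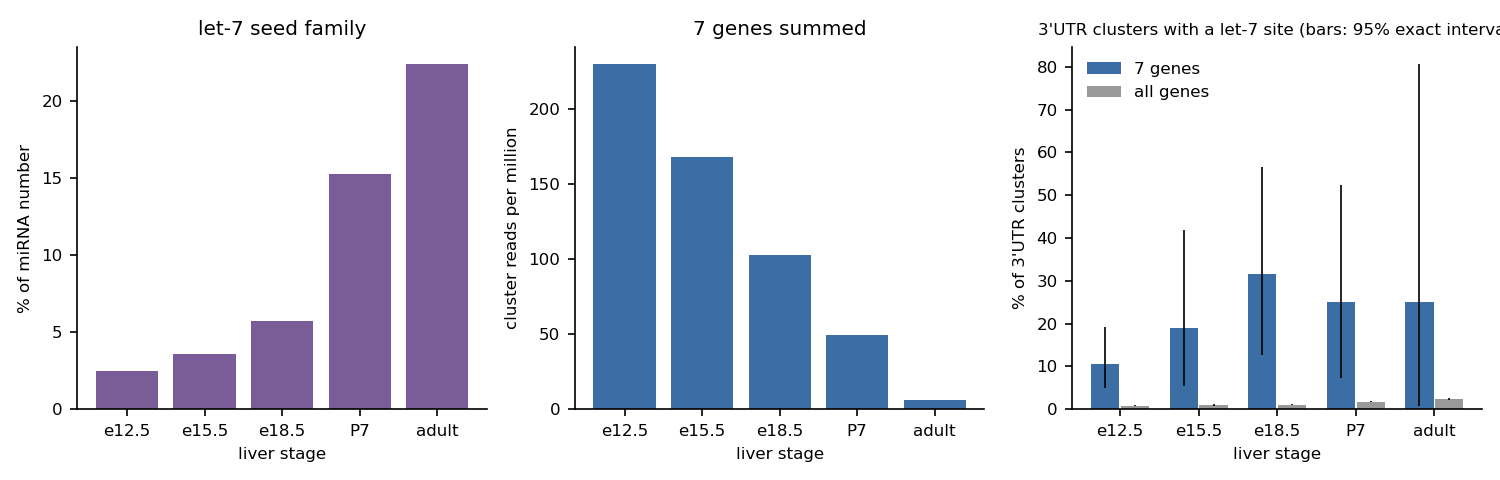
Share of the let-7 seed family in the miRNA numbers (left), summed cluster reads (rpm) of the 7 genes (middle), and share of 3′UTR clusters with a let-7 site for the 7 genes and for all genes (right), by liver stage. Error bars are 95% exact intervals for counting error. The family share went from 2.45 to 22.4% while the summed reads went from 230 to 5.95.

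Sites of other abundant miRNAs were looked for among the 20 seed families with the highest numbers at each stage. Hmga2 had none in its mRNA clusters. On the other genes the sites with most reads were mostly listed at a single stage. The mature sequences and the windows are shown for 3 coding sites, each from a different gene, with the same meaning of the capitals.
miR-144-3p: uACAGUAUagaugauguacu
Lin28b, chr10:45381352-45381381, minus strand, CDS: ctcctcagccaaagaagtgccatTACTGTc
miR-27b-3p: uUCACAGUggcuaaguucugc
Igf2bp1, chr11:95979286-95979315, minus strand, CDS: gctcagtacggtacagtggagaACTGTGAg
miR-125b-5p: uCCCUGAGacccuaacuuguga
Igf2bp2, chr16:22060817-22060846, minus strand, CDS: aagcagcaggagcagagataccCTCAGGGA

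miR-144-3p, an erythroid miRNA that was the second most abundant family at e12.5 with 21.7% of the miRNA numbers, had sites in 3 of 124 mRNA clusters at that stage (2.42%), beside 1.59% of mRNA clusters of all genes. All 3 were on Lin28b. The strongest was the 6mer shown, with 137 reads, and none of the 3 was listed later. The miR-27b-3p 7mer of Igf2bp1 had 251 reads at e15.5 and 5 at e18.5. The 8mer of Igf2bp2 had 60 reads at e12.5 and 13 at P7. Its seed is shared by miR-125b-5p, the vertebrate relative of worm lin-4, and miR-351-5p, which had the highest number of this family at e12.5, so the site cannot be assigned to either. Sites of miR-16-5p were the most widely spread at e12.5, in 6 of 124 mRNA clusters on 5 genes (4.84%), beside 4.06% of mRNA clusters of all genes. For let-7 the same count was 10 of 124 (8.06%) beside 0.861%. Arid3a had 147 reads on a miR-16-5p 7mer in the CDS at e12.5, and Trim71 159 reads on a miR-181b-5p 7mer in the 3′UTR. On Igf2bp3 the strongest site of another family was a miR-20a-5p 6mer with 23 reads at e12.5, below the 141 reads of its let-7 site.

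Other genes of the pathway were followed through lists compiled from general knowledge. Of 12 genes that make or regulate let-7, 2 were past 4-fold higher at e12.5 than in the adult, Ago2 (260 and 15.8 rpm) and Dgcr8 (38.7 and 4.9 rpm), which encode the slicing Argonaute and the partner of Drosha. This was 2 of 12 beside 22.6% of all genes tested. None was past 4-fold lower, and the median log2 ratio was 1.57, beside 0.83 over all genes. The number past 4-fold higher was 0 by cluster shares, beside 4.67% of all genes, and 5 with 0.1 rpm added or with the first list alone, beside 47.2 and 35.4% of all genes. Lin28a, the paralog of Lin28b, had 2.45, 6.6, 18.1 and 2.97 rpm from e12.5 to P7 and was not listed in the adult. It was highest at e18.5, unlike Lin28b.

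Of 25 other well known let-7 targets, 10 were past 4-fold higher at e12.5 than in the adult and 1 was past 4-fold lower, beside 22.6 and 5.93% of all genes tested. Their median log2 ratio was 1.63, and by cluster shares 4 were past 4-fold higher, beside 4.67% of all genes. Among those higher were Igf1r, a growth factor receptor (99.1 and 1.73 rpm, log2 ratio 5.20) and the cell cycle phosphatase Cdc25a (48.9 and 1.13 rpm, 4.55). Myc (34.4 rpm) and the imprinted gene Peg10 (141 rpm) were not listed in the adult. The death receptor Fas was the lower one, with 0.892 and 9.81 rpm. Between e12.5 and e18.5, 1 of the 25 was past 4-fold higher and 2 past 4-fold lower, against 10.7 and 9.27% of all genes tested. A list of 12 other oncofetal liver genes had a median of 4.87 at e12.5 over adult, close to the 4.99 of the 7 genes, with 7 past 4-fold higher. Unlike the 7 genes, their summed reads did not decline before birth, with 4269, 5077, 6733, 8515 and 92.7 rpm in order of age. Igf2 and H19 took much of this sum, with 1052 and 1887 rpm at e12.5 and 2956 and 1944 at e18.5. Over the 11 genes tested the median log2 ratio of e12.5 over e18.5 was -0.30, beside 0.37 over all genes. Some genes of the list went the other way, such as Dlk1, from 77.7 rpm at e12.5 to 30.4 at e18.5.

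The cell types of the liver change over the same stages. In bulk tissue, fewer cells of a type and less RNA per cell cannot be told apart. Reads on 8 hepatocyte markers summed to 635 rpm at e12.5, 5551 at e18.5 and 9532 in the adult, and 8 of the 8 were past 4-fold lower at e12.5 than in the adult, beside 5.93% of all genes tested. Reads on the erythroid markers, mostly globins, summed to 66537, 90063, 96323, 34567 and 1639 rpm in order of age. Hba-a1 and Hba-a2, which were listed with the same reads, were both counted. Of the 11 erythroid markers, the 10 with enough reads were all past 4-fold higher at e12.5 than in the adult, beside 22.6% of all genes tested, with Klf1 not listed there. Markers of other blood cells summed to 26.7 to 308 rpm, of stellate and endothelial cells to 52.9 to 318 rpm, and of cholangiocytes to 0 to 20 rpm. Between e12.5 and e18.5 the erythroid sum did not decline, while that of the 7 genes went from 230 to 103 rpm. The part of cell composition in the levels of the 7 genes was not tested.

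The genes whose distribution over the 5 libraries was most like that of the 7 genes summed were sought among 5271 genes with at least 50 rpm over all libraries. Likeness was measured as the summed absolute differences of the 5 percentage shares, divided so that 100 means no overlap. The closest were Lpcat1 (1.88), a lipid-remodelling acyltransferase, Fryl (2.22), Arcn1 (2.45), which encodes a coat protein of transport vesicles, Mir665 (2.96) and Ammecr1 (3.33). Of their rpm summed over the libraries, the 7 genes had 41.4% at e12.5, 8.89% at P7 and 1.07% in the adult, and Lpcat1 39.9, 9.15 and 0.668%.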

How the data were processed

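Ago HITS-CLIP tables of 5 mouse livers, 1 per stage, were used. The authors had prepared reads (FASTX-Toolkit), aligned them (Bowtie) against genome and miRNA hairpins, built clusters where reads overlapped, and searched these for miRNA seed matches. The processing notes name the builds mm9 and mm10, and 100% of 2000 entries checked per list matched GRCm38 (mm10). The deposited read signal, the highest read number over a site, is not scaled. The conservation score was used as deposited by the authors. Symbols were split at commas and regions taken as listed. A cluster's reads were its highest signal, summed per gene and scaled to 1000000 summed cluster reads of the table (rpm). Clusters of the 2 lists of an embryonic table that overlapped on a strand were counted once, and their reads added. A gene was called past 4-fold at log2(rpm + 1), with at least 10 reads in either library. Intervals are Clopper-Pearson. 3′UTRs came from the GENCODE basic annotation (release M21). Named from the lists were genes past 4-fold, at most 8 per list, with others given for contrast after their values were seen. The members and lists were chosen with earlier results of these data known. Python 3.11.15, pandas 2.3.3, scipy 1.17.1 and pysam 0.24.0 were used, and calls and joining were tested on simulated data.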

Additional observations from a re-analysis of the deposited data

How the results depend on the processing

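No paired analysis was possible because each stage has 1 library. The direction of the summed read ratio of the 7 genes held under each alternative run, between 3.25 and 5.73 on the log2 scale for e12.5 over adult (5.06 as reported), 0.79 and 1.82 for e12.5 over e18.5 (1.16) and 1.82 and 3.04 for P7 over adult (2.86). In that order, scaling to the total reads of each library gave 4.71, 1.31 and 2.82, and scaling to the reads of mRNA clusters gave 4.45, 1.53 and 2.43, while the median of all genes for e12.5 over adult moved from 0.83 to 0.57 and 1.06. The total used for e18.5 left out the repeat library, and whether it should be included is not given in the sources used here. The first list alone gave 5.73 and 1.63 for the comparisons with e12.5 and the second 4.56 and 1.82. Shares of clusters in place of reads gave 3.25 for e12.5 over adult and 1.82 for P7 over adult, with 1 gene past 4-fold in the latter. For e12.5 over e18.5, mRNA clusters only gave 0.79 and clusters with at least 10 reads 1.27. The number of the 7 genes past 4-fold at e12.5 over adult was 5 or 6 throughout, and Arid3a fell below with the second list and by cluster shares. The share of all genes past 4-fold ran from 4.67% by cluster shares to 47.2% with 0.1 rpm added. Of the 12 genes that make or regulate let-7, 2 as reported, the number was 0 by cluster shares, 4 scaled to mRNA reads, and 5 with 0.1 rpm added or with the first list. Of the 25 other targets, 10 as reported, it was 4 by cluster shares. The first list alone gave 367, 345 and 118 rpm and 3, 1 and 2 let-7 sites for the embryonic stages in order of age, and the second 163, 103 and 45.6 rpm and 10, 4 and 6 sites, the same numbers of sites as reported. With at least 10 reads, e18.5 kept 16 clusters and 3 let-7 sites. Clusters above the level of 5 reads in the shallowest table, a setting chosen after seeing the data, numbered 152, 40, 33, 37 and 6. Some small differences turned: Arid3a at e12.5 over e18.5 (0.05 scaled to mRNA reads, 0.57 with the first list), Igf2bp3 there (-0.16 with the first list, 1.86 with the second), and Igf2bp2 at P7 over adult (-0.24 scaled to mRNA reads, -0.46 by cluster shares). The cause was not tested. The 5-read minimum limits what an unlisted gene says, most at e18.5.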
